A study of Mus musculus with 20 samples.

Results

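The cathepsins described here are 10 lysosomal protease genes, Ctsa, Ctsb, Ctsc, Ctsd, Ctsf, Ctsh, Ctsl, Ctso, Ctss and Ctsz, measured in the neocortex of young and old mice. They were chosen by name: every probe set whose platform annotation gives one of these symbols was taken. A probe set is a group of short oligonucleotides on the array that together report the messenger RNA of a gene. The 10 genes are among 18193 genes with a probe set of 1 symbol, and they have 23 probe sets, of which 18 were bright enough to be tested. All 10 genes had at least 1 tested probe set. The mice were male B6C3F1 hybrids, a first-generation cross of B6 and C3H parents, and were housed singly. Young control mice were 5 months old and ate the control diet. Old control mice were 30 months old and ate the same diet. The other groups were also 30 months old and received vitamin E in the diet from 15 months of age. The first supplement was α-tocopherol at 1000 mg/kg, and the second, the mixture, was 500 mg/kg α-tocopherol with 500 mg/kg γ-tocopherol. Each group had 5 mice and each mouse its own array of poly(A) RNA, so p-values measure the spread between animals.

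Cathepsins are made as inactive precursors, carried to the lysosome largely by mannose 6-phosphate receptors, and activated there at acidic pH. Most are cysteine proteases, while cathepsin D is an aspartic protease and cathepsin A a serine carboxypeptidase. In brain, cathepsins D, B and L take part in protein turnover in neurons and glia, and cathepsin S is found mainly in microglia, the resident macrophages of the tissue. Cystatins are their protein inhibitors, and the factor TFEB activates many lysosomal genes through an E-box.

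The promoters are shown because many lysosomal genes share such a motif. RefSeq promoter windows of 250 bases before to 50 bases after the start (GRCm38.p6) were found for 8 of the 10 genes, with 9 windows since Ctsa has a pair of starts. Ctsb and Ctsh had no entry. Each window was searched on both strands for the E-box CACGTG, for the longer TCACGTGA, which contains CACGTG, and for the PU.1-like GAGGAAGT. Among 32851 promoters of this length, CACGTG was in 7.15%, TCACGTGA in 0.974% and GAGGAAGT in 3.2%. CACGTG was in windows of Ctsa, Ctsd, Ctsf and Ctsl, TCACGTGA in those of Ctsa and Ctsd, and GAGGAAGT in those of Ctsc and Ctss. Ctsa had TCACGTGA with its first base at position -13 and again at 5, counted from the start, and Ctsd had it at -99, with a further CACGTG at -245. The stretches that hold the matches are printed 5′ to 3′ on the strand of the gene with the match in capitals, together with Ctsz, whose signal rose most with age and whose window held none of these letters. The GAGGAAGT matches lie on the opposite strand and so read ACTTCCTC. A match is a description, not a site or a cause.
Ctsd (chr7:142387828-142388077, minus strand): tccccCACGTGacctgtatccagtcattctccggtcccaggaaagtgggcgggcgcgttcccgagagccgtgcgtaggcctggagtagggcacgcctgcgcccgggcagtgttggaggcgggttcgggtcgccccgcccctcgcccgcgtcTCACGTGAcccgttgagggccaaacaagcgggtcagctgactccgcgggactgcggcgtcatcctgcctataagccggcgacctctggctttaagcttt
Ctsa (chr2:164833653-164833792, plus strand): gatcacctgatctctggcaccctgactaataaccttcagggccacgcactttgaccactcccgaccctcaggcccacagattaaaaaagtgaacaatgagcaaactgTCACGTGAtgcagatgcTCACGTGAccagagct
Ctsf (chr19:4855045-4855144, plus strand): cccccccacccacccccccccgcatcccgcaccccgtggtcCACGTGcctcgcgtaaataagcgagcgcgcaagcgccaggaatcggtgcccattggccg
Ctsl (chr13:64370691-64370770, minus strand): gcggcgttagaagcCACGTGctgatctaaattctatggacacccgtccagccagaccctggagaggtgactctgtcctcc
Ctss (chr3:95526666-95526805, plus strand): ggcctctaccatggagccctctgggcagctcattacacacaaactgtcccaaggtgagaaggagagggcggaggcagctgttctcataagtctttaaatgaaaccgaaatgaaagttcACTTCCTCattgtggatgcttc
Ctsc (chr7:88277885-88277984, plus strand): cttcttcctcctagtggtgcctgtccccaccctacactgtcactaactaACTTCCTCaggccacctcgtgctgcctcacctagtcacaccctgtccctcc
Ctsz (chr2:174439040-174439289, minus strand): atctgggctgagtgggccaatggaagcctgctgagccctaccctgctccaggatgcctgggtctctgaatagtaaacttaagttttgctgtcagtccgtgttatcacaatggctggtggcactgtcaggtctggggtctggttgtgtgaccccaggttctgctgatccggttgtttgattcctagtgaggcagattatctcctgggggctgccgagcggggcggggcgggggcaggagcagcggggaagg

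The signal is the deposited linear intensity, with a trimmed mean of 1000 on each of the 20 arrays. Differences are on the log2(signal + 16) scale with the standard error (SE) of the limma fit. Folds are 2 raised to that difference, so they are ratios of signal + 16. Levels of different probe sets cannot be compared. The median signal ran from 316 to 331.2 in young control mice, 283.8 to 313.3 in old control mice, 280.3 to 317.7 with α-tocopherol and 292.3 to 331.5 with the mixture. The ratio of the 3′ to the 5′ β-actin probe set, a measure of RNA integrity and labelling, was 1.422 to 1.739 in young control and 1.727 to 2.524 in old control mice, 1.426 to 2.36 with α-tocopherol and 1.216 to 1.596 with the mixture. All 14 listed neuron markers lay above the signal limit, the defining markers Rbfox3, Snap25 and the cortical excitatory Slc17a7 among them.

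Ctsa, Ctsb, Ctsd, Ctsh, Ctss and Ctsz each had a probe set that was higher in the old control mice than in the young at the threshold. Of the 18 tested probe sets, 8 were called higher at an adjusted p of 0.05 and 9 were not called. The remaining one, the dim probe set of Ctso, was called lower, but it passed the filter on dim probe sets only through the young control mice, so its call supports no direction. Over all 27022 probe sets tested, 18.9% were called, with 9.33% called higher and 9.54% called lower. The median log2 difference of the 18 was 0.35, against -0.05 over all probe sets. With each gene read from its brightest probe set, 5 of 10 genes were called higher, namely Ctsa, Ctsb, Ctsd, Ctss and Ctsz, and Ctsh was called on its second probe set. With 1 probe set per gene over the whole array, 3039 of 13351 were called, 54.5% of them higher. The gene lists below are also read from 1 probe set per gene, while the shares beside them are over all probe sets. Every old control mouse lay above every young control mouse on 9 of the 18 probe sets, as on 7.09% of all. In whole tissue, more cells of a type and more RNA per cell cannot be told apart.

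**Figure D1:**
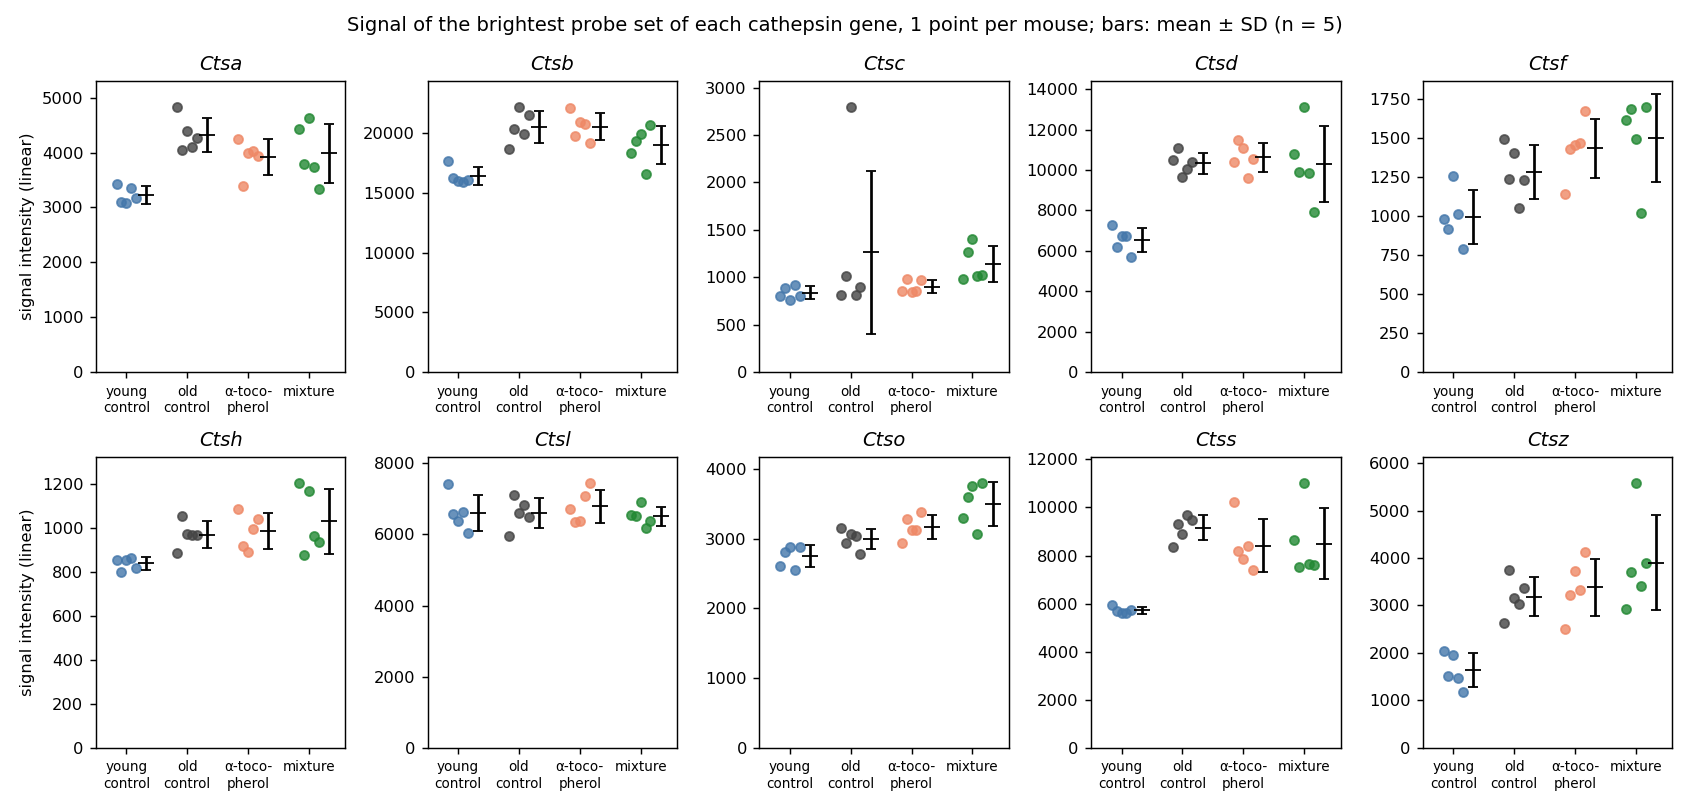
Deposited signal (linear axis from 0) of the brightest probe set of each of the 10 cathepsin genes in each mouse, by group, with points for mice and bars for the mean with its SD (n = 5 per group). The young control mice lie below all old control mice for Ctsa, Ctsb, Ctsd, Ctsh, Ctss and Ctsz, while the groups overlap for Ctsl, and 1 old control mouse stands at 2790 for Ctsc.

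Ctsd encodes cathepsin D, the main aspartic endopeptidase of the lysosome. Its probe set gave 5704, 6185, 6712, 6740 and 7291 in the young control mice and 9637, 10062, 10374, 10486 and 11067 in the old control mice. All old control mice were higher than all young control mice. Ctsd rose 1.58-fold with age (log2 difference 0.66 ± 0.10 SE, limma adjusted p = 0.00016). With α-tocopherol the signals were 9583, 10409, 10535, 11076 and 11502, and with the mixture 7910, 9872, 9926, 10778 and 13096. Every supplemented mouse lay above every young control mouse, and the mixture group held both the lowest and the highest Ctsd signal of the old mice.

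Ctsa encodes cathepsin A, a serine carboxypeptidase that also stabilises the lysosomal enzymes β-galactosidase and neuraminidase. The brighter Ctsa probe set gave 3076, 3096, 3178, 3361 and 3420 in young control and 4045, 4099, 4260, 4396 and 4821 in old control mice, without overlap. It rose 1.34-fold (log2 difference 0.42 ± 0.08 SE, limma adjusted p = 0.00172). With the β-actin 3′/5′ ratio as a covariate, the Ctsa difference was 0.31 and its adjusted p 0.0525. The dimmer Ctsa probe set, 1458466_at, differed by 0.18 (adjusted p = 0.604), with overlapping groups that ran from 338 to 491 in young control and from 336 to 703 in old control mice.

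Ctss encodes cathepsin S, a cysteine endopeptidase that stays active at neutral pH and processes the invariant chain of MHC class II. Its signals were 5593, 5625, 5710, 5724 and 5953 in young control mice, which lay close together, and 8364, 8914, 9316, 9496 and 9668 in old control mice. The groups were far apart, and Ctss rose 1.60-fold (log2 difference 0.68 ± 0.09 SE, limma adjusted p = 0.000105). The α-tocopherol mice gave 7392, 7870, 8187, 8398 and 10234, and the mixture mice 7526, 7601, 7655, 8633 and 11012. In each supplemented group 1 mouse stood above the others, and all supplemented mice lay above the young control range. In the mixture group it was mouse 3. On brightest probe sets, mixture mouse 3 was also the highest of its group for Ctsa, Ctsc, Ctsd, Ctsl and Ctsz. For Ctsb, Ctsf, Ctsh and Ctso another mixture mouse was highest.

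Ctsb encodes cathepsin B, a cysteine protease that cuts both within proteins and from their carboxyl end. It was read by 4 tested probe sets. The brightest, 1417490_at, gave 15921, 15981, 16109, 16283 and 17676 in young control and 18644, 19954, 20347, 21512 and 22147 in old control mice, again without overlap, and rose 1.25-fold (log2 difference 0.32 ± 0.06 SE, limma adjusted p = 0.00181). Quantile normalization ended this call, with a Ctsb difference of 0.11 and an adjusted p of 0.161. The other Ctsb probe sets were not called. They differed by 0.21 for 1448732_at (adjusted p = 0.169), 0.12 for 1417491_at (adjusted p = 0.369) and 0.03 for 1417492_at (adjusted p = 0.826). The Ctsb result thus rested on 1 of 4 probe sets, although 1448732_at was also called with the β-actin covariate, at 0.49 (adjusted p = 0.00373), and with array medians set equal, at 0.35 (adjusted p = 0.0192).

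Ctsl encodes cathepsin L, a cysteine endopeptidase with a broad role in lysosomal protein breakdown. Its probe set gave 6043, 6381, 6578, 6636 and 7426 in young control and 5966, 6499, 6608, 6836 and 7119 in old control mice. The groups lay over each other, and the Ctsl difference was 0.00 with a 95% interval of -0.14 to 0.13. That interval does not reach the size of the Ctsd, Ctss and Ctsz differences. The sign of so small a difference changed with the scaling of the arrays, and it was 0.14 with array medians set equal.

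Ctsf encodes cathepsin F, a cysteine protease of the papain family. Its signals were 787, 921, 982, 1017 and 1260 in young control and 1050, 1233, 1241, 1403 and 1493 in old control mice, with overlap. The Ctsf difference of 0.37 ± 0.14 SE missed the threshold (limma adjusted p = 0.0648). It passed with cyclic loess normalization (0.41, adjusted p = 0.0487), with array medians set equal (0.51, adjusted p = 0.0122), without young control mouse 3 (0.46, adjusted p = 0.0304), without old control mouse 4 (0.44, adjusted p = 0.0445) and without mixture mouse 4 (0.37, adjusted p = 0.0323).

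Ctso encodes cathepsin O, a little-studied cysteine protease. Its probe sets differed in direction. The bright one, 1433501_at, gave 2553, 2603, 2808, 2879 and 2882 in young control and 2782, 2941, 3035, 3069 and 3146 in old control mice, which overlap, with a difference of 0.13 ± 0.07 SE (limma adjusted p = 0.205). With array medians set equal this Ctso difference was 0.26 and was called (adjusted p = 0.0178). The dim one, 1443084_at, gave 212, 254, 268, 338 and 520 in young control and 165, 172, 178, 187 and 195 in old control mice, close to the signal limit of 184 for testing. Its mean was 199 over all 20 mice and 172 over the 15 old ones, so that only the young control mice took it past the filter, unlike the other 17 tested cathepsin probe sets. The young control mice were widely spread on it, and the fitted difference of -0.71 ± 0.22 SE is given as a description.

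Ctsz encodes cathepsin Z, also called cathepsin X, a cysteine carboxypeptidase found in microglia and other macrophages. Its brightest probe set, 1417868_a_at, gave 1179, 1469, 1510, 1958 and 2049 in young control and 2632, 3025, 3152, 3369 and 3748 in old control mice. No mouse of either group entered the range of the other. Ctsz rose 1.97-fold on this probe set (log2 difference 0.98 ± 0.16 SE, limma adjusted p = 0.000461). The other Ctsz probe sets, 1417870_x_at and 1417869_s_at, rose 1.95-fold (adjusted p = 9.38e-06) and 1.74-fold (adjusted p = 0.00102). Their names mark possible binding of other transcripts, so the 3 do not count as independent measures. The α-tocopherol mice gave 2506, 3212, 3318, 3729 and 4127 on the brightest probe set and the mixture mice 2932, 3405, 3713, 3893 and 5576, all above the young control range. Of the cathepsin genes read by more than 1 tested probe set, Ctsz alone had all of them called.

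Ctsh encodes cathepsin H, a cysteine aminopeptidase. Its brighter probe set, 1418365_at, gave 800, 817, 853, 854 and 865 in young control and 884, 966, 968, 973 and 1054 in old control mice. The groups did not overlap, but the Ctsh difference of 0.21 ± 0.09 SE was not called (limma adjusted p = 0.122). The dimmer probe set, 1443814_x_at, gave 447, 456, 492, 545 and 659 in young control and 708, 720, 762, 829 and 838 in old control mice. It rose 1.48-fold (log2 difference 0.57 ± 0.12 SE, limma adjusted p = 0.00316), and with the β-actin covariate the difference was 0.47 and the adjusted p 0.06. The name of this probe set also marks possible binding of other transcripts, so the Ctsh call rests on a probe set that may not be specific. With array medians set equal the brighter Ctsh probe set was also called, at 0.34 (adjusted p = 0.0313).

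Ctsc encodes cathepsin C, or dipeptidyl peptidase I, which activates granule serine proteases of immune cells. Its signals were 756, 803, 806, 889 and 922 in young control and 808, 812, 896, 1011 and 2790 in old control mice. The other 4 old control mice lay near the young range, and 1 lay far above it. The Ctsc difference was 0.41 ± 0.22 SE (limma adjusted p = 0.206), and without old control mouse 3 it was 0.08. That mouse also stood apart on Plac8, a monocyte and lymphoid gene singled out after its values were seen, with a signal of 3370 where the other old control mice gave 170 to 240, and its part in the Ctsc value was not tested. The mixture mice gave 979, 1016, 1024, 1269 and 1407, each above every young control mouse, with a difference from young of 0.43 (adjusted p = 0.187). The α-tocopherol mice gave 843, 856, 856, 969 and 976. Without old control mouse 3, whose value also widened the shared spread of the fit, the mixture difference from young was called (adjusted p = 0.00804).

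**Figure D2:**
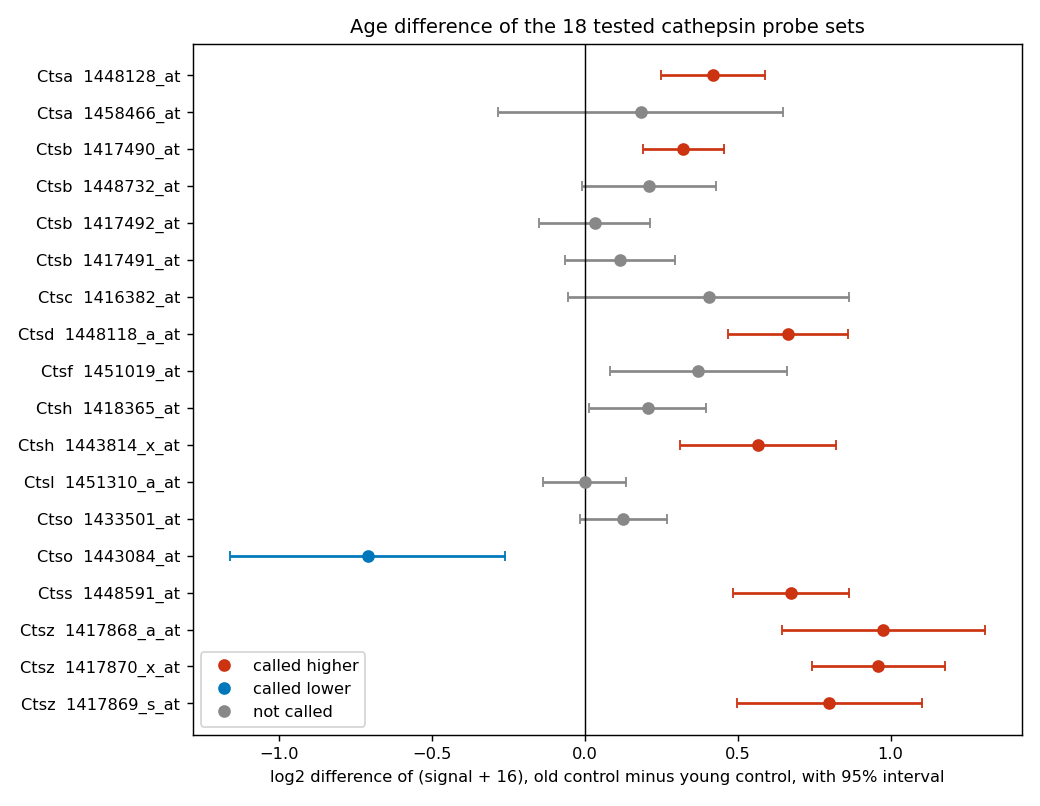
Log2 difference of (signal + 16), old control minus young control, with 95% intervals for the 18 tested probe sets of the 10 cathepsin genes (n = 5 mice per group). The 3 Ctsz probe sets lie farthest to the right at 0.80 to 0.98, Ctsl lies at 0.00, and the dim Ctso probe set, which passed the filter through the young control mice alone, lies at -0.71.

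The 5 remaining cathepsin probe sets were below the limit and were not tested. They were 1444987_at for Ctsb, 1446834_at and 1437939_s_at for Ctsc, 1449794_x_at for Ctsf and 1457724_at for Ctsl. On these the mice of 1 group could differ several-fold, as for the Ctsb probe set, with 40.9, 54.5, 67.1, 340 and 432 in old control mice. No direction was read from them.

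Neither supplement gave a called difference from old control in any cathepsin probe set. For α-tocopherol 0 of 18 were called, against 0% of all probe sets, with 0 of 18 at an unadjusted p under 0.05 and 1473 of all 27022. The median difference of the 18 was 0.01 and the lowest adjusted p 0.888 (limma). For the mixture 0 of 18 were called, against 3.59% of all probe sets, with 2 of 18 at an unadjusted p under 0.05 beside 5420 of all 27022, and a median of 0.05. A p that misses the threshold does not show equal levels. The widest 95% interval reached 0.47 to either side of the difference, for the dim Ctsa probe set.

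Ctso came closest to the threshold. Its bright probe set gave 2930, 3119, 3119, 3282 and 3379 with α-tocopherol and 3063, 3297, 3592, 3753 and 3794 with the mixture, beside 2782 to 3146 in old control mice. In the mixture group 4 of 5 mice lay above the highest old control mouse and 1 lay within the old control range. The Ctso difference of the mixture from old control was 0.22 ± 0.07 SE, a 1.16-fold higher signal with a 95% interval of 0.08 to 0.36 (limma adjusted p = 0.0704). Without mixture mouse 4 it was 0.27 and passed the threshold (adjusted p = 0.0472). For α-tocopherol the Ctso difference from old control was 0.08 ± 0.07 SE (adjusted p = 0.914). The other probe set with an unadjusted p under 0.05 was Ctsb 1417492_at, which was 0.19 ± 0.09 SE higher with the mixture (adjusted p = 0.236), while the brightest Ctsb probe set was 0.11 lower (adjusted p = 0.333).

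For the genes that rose most with age, the levels in both diets lay near old control. Against old control, Ctsd differed by 0.04 with α-tocopherol (95% interval -0.16 to 0.24) and by -0.02 with the mixture (-0.22 to 0.18). Ctss differed by -0.13 (-0.32 to 0.06) and -0.12 (-0.31 to 0.07). Ctsz differed by 0.08 (-0.26 to 0.41) and 0.27 (-0.06 to 0.60) on its brightest probe set. For Ctsd and Ctss these intervals do not include a return to the young control level, which would need differences of -0.66 and -0.68. The same holds for Ctsz on its brightest probe set, which rose by 0.98 with age. Both supplements are compared with the same old control mice, so these pairs of values are not independent.

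**Figure D3:**
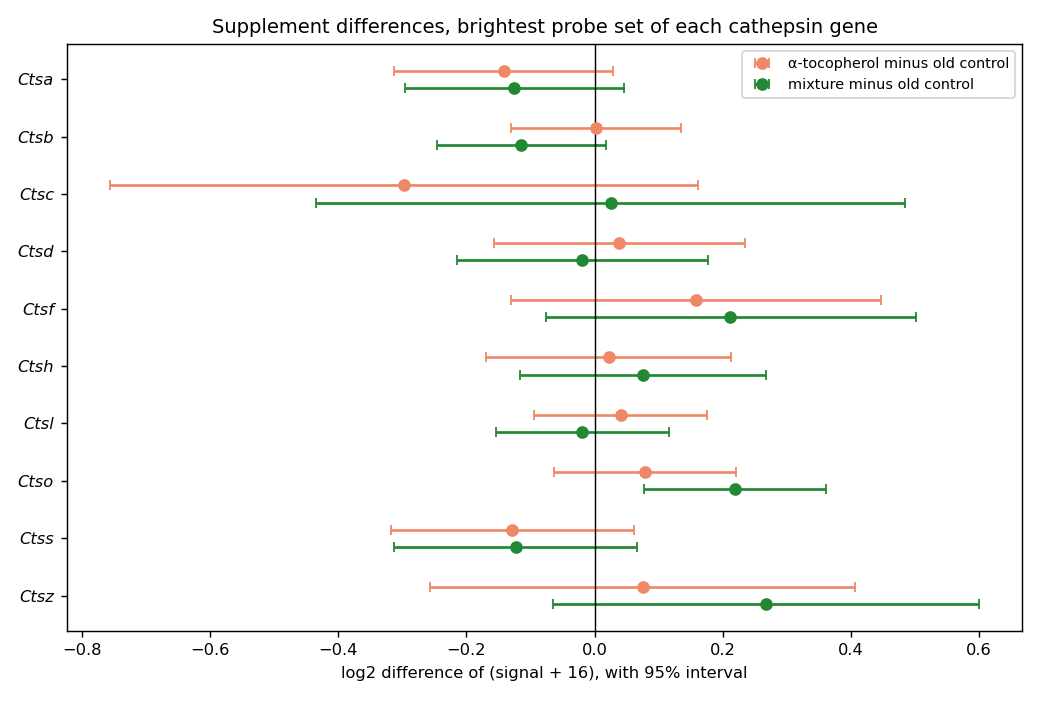
Log2 difference of (signal + 16) from old control with 95% intervals for the brightest probe set of each cathepsin gene, for α-tocopherol and for the mixture (n = 5 mice per group). Intervals of all genes include 0 except that of Ctso with the mixture, at 0.22 (0.08 to 0.36), whose adjusted p was 0.0704.

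The mixture and α-tocopherol alone had the same total of tocopherol by weight and the same duration, and the chromanol ring of γ-tocopherol is less methylated than that of α-tocopherol. Over 18 probe sets compared, 0 were called between these diets, as were 0% of all probe sets, with 0 of 18 at an unadjusted p under 0.05 and 2266 of all 27022. The smallest p was that of Ctso, 0.14 higher with the mixture (95% interval 0.00 to 0.28, limma adjusted p = 0.598). Ctsb was 0.12 lower on its brightest probe set (-0.25 to 0.02, adjusted p = 0.655). For Ctsc all 5 mixture mice, from 979 upward, lay above all 5 α-tocopherol mice, up to 976, yet the difference of 0.32 (-0.14 to 0.78) had an adjusted p of 0.742. The gap between these Ctsc groups was a few signal units.

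Each old group was also set against the same young control mice. With α-tocopherol 11 of 18 cathepsin probe sets were called higher, where 9.31% of all probe sets were called higher. With the mixture 12 were called higher, where 9.07% of all were called higher. The dim Ctso probe set was called lower in both, with old levels under the signal limit, and is not read as a result. Read by brightest probe set, 7 of 10 genes were called with α-tocopherol and 8 with the mixture, beside 5 in old control mice. The additional genes were Ctsf and Ctso in both, and Ctsh with the mixture. Ctsf differed from young by 0.37 in old control, 0.53 with α-tocopherol (adjusted p = 0.0115) and 0.58 with the mixture (adjusted p = 0.00711). Ctso differed by 0.13, 0.21 (adjusted p = 0.0405) and 0.35 (adjusted p = 0.00204). Ctsh differed by 0.21, 0.23 (adjusted p = 0.0889) and 0.28 (adjusted p = 0.0395). None of these genes differed between an old diet group and old control at the threshold, so a call in one old group and not in another is no difference between diets.

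Several of these calls lay close to the threshold. The Ctso call with α-tocopherol was lost without any 1 of 7 mice, namely young control mice 1, 2 and 4 and α-tocopherol mice 2, 3, 4 and 5, with adjusted p from 0.0576 to 0.102, and also without a filter (0.0505), with cyclic loess (0.0643) and with no intensity trend (0.0559). The Ctsa call was lost with α-tocopherol without young control mouse 2 or 3 or α-tocopherol mouse 1, and with the mixture without mixture mouse 1 or 3. The Ctsb call with the mixture was lost without young control mouse 2, 3, 4 or 5 or mixture mouse 2, 3 or 5, without a filter (0.0536) and with no intensity trend (0.0545). The Ctsh call was lost without any single young control mouse, without mixture mouse 1 or 3, without a filter (0.0518), with quantile normalization (0.0547) and with only the groups compared (0.0774). The count of cathepsin probe sets called higher or lower with the mixture, 13 with the dim Ctso one, was 8 without mixture mouse 3. It was 9 when old control mouse 3 was left out with it. Over all 27022 probe sets the calls also fell, from 4611 to 3380 and to 3631 in the same order.

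Over the 4 groups at once, the moderated F test of the same fit called 12 of 18 cathepsin probe sets, against 21.4% of all. These were all 3 of Ctsz, 2 of Ctsb, 2 of Ctso including its dim one, and 1 each of Ctsa, Ctsd, Ctsf, Ctsh and Ctss. The dim Ctso probe set passed the filter only through the young control mice, so its call here is not read as a result. Ctsc (adjusted p = 0.297) and Ctsl (adjusted p = 0.875) had no called probe set. The largest F was that of Ctsz on 1417870_x_at (46.15, adjusted p = 2.1e-06), followed by Ctsd (25.25, adjusted p = 9.93e-05). In mean signal Ctsz on its brightest probe set ran from 1601 in young control through 3164 in old control and 3333 with α-tocopherol to 3812 with the mixture, and the neighbours among the old groups did not differ at the threshold. Ctss ran from 5720 in young control through 8364 with α-tocopherol and 8393 with the mixture to 9139 in old control, again with a called step from young only.

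Correlation between cathepsin genes was examined among the 15 old mice after each group mean was removed. Of 45 gene pairs, 0 were called after Benjamini-Hochberg adjustment, with 4 at an unadjusted p under 0.05 (permutation test within groups, 100000 resamples, two-sided). The largest r was that of Ctsf with Ctso (r = 0.72, rho = 0.706, permutation p = 0.00828, adjusted p = 0.204). It was 0.306 without the 2 mice farthest from the median on Ctsf. Ctsh with Ctsl had r = 0.613 and rho = 0.679 (permutation p = 0.00908, adjusted p = 0.204), and r = 0.785 without the 2 mice farthest on Ctsh. The mice left out were chosen for each pair from its first gene alone. All values of a mouse come from the same array, which they share with its scaling.

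Most other cathepsins were too dim to test in this tissue. Of 13 further cathepsin genes on the array, 11 lay below the signal limit, among them Ctsw and Ctsg of lymphoid and myeloid granules and the placental group around Ctsj and Ctsq. Ctse, an aspartic protease of the endosome, fell by 0.38 on the log2 scale with age (limma adjusted p = 0.0225), a call lost with quantile normalization (0.0522), cyclic loess (0.0746) and equal array medians (0.138). Ctsk, the cathepsin of osteoclasts, differed by -0.58 (adjusted p = 0.058).

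Of the cathepsin inhibitors, 6 of 19 listed genes were tested. With age 2 were called higher and 0 lower, with a median of 0.20. Over all probe sets 9.33% were called higher and 9.54% lower. Cst3, the secreted inhibitor cystatin C, rose by 0.48 (adjusted p = 0.000376) and Cstb, the cytosolic cystatin B, by 0.23 (adjusted p = 0.0365). Quantile normalization ended both calls (0.0613 for Cst3 and 0.131 for Cstb), and that of Cstb was also lost with cyclic loess (0.195), with the β-actin covariate (0.568) and without old control mouse 3 (0.0664). Serpinb1a, an inhibitor of granule proteases, differed by 0.46 (adjusted p = 0.149), and Serpinb6a by 0.14 (adjusted p = 0.33). Cst7, which encodes cystatin F, an inhibitor of cathepsin C, lay below the limit, with median signals of 32.3 in young control, 89.3 in old control, 155.9 with α-tocopherol and 154.1 with the mixture. With the mixture Cst3 was 0.36 lower than in old control (adjusted p = 0.0147). With the β-actin covariate it was still 0.31 lower, with an adjusted p of 0.735, where 0 of 27022 probe sets were called. Quantile normalization turned the difference to 0.05.

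Of 22 tested genes listed for lysosomal sorting and protease processing, 4 were called higher and 3 lower with age, where 9.33% of all probe sets were called higher and 9.54% lower, and the median was 0.07. Grn, the precursor of lysosomal granulins, rose by 0.67 (adjusted p = 0.000234) and Gga1, an adaptor of mannose 6-phosphate receptors, by 0.50 (adjusted p = 0.00165). Gnptg, a subunit of the enzyme that makes the mannose 6-phosphate tag, fell by 0.48 on the log2 scale (adjusted p = 0.00563), and M6pr, the cation-dependent receptor of that tag, fell by 0.20 on the log2 scale (adjusted p = 0.0223). The Gnptg call was lost with the β-actin covariate (0.109), and that of M6pr with the covariate (0.252) and with equal array medians (0.54). The remaining calls were Psap and Scarb2, higher, and Pgap1, lower, named after their values were seen. Pgap1 acts on lipid anchors of proteins in the endoplasmic reticulum and is not known to handle cathepsins. Lgmn, the protease legumain that cleaves several cathepsin precursors, was also singled out afterwards and differed by -0.01 (adjusted p = 0.916).

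The lysosome is acidified by a proton pump of many subunits. Of 21 tested acidification genes, 11 were called higher and 0 lower with age, with 9.33% of all probe sets called higher, and the median was 0.14. The count called higher was 6 with quantile normalization and with cyclic loess, each with 1 lower, 5 with the β-actin covariate and 13 with equal array medians. With 1 probe set per gene over the whole array, 3039 of 13351 were called with age, 54.5% of them higher. The smallest p were those of Atp6v0a1 (0.51), Atp6v1e1 (0.46), Atp6v1c1 (0.38) and Atp6v1h (0.48), with adjusted p from 0.00013 to 0.00119. With the mixture 4 of the 21 acidification genes were called lower than in old control, where 2.29% of all probe sets were, and the median was -0.17. With 1 probe set per gene, 603 of 13351 were called in this comparison, 30% of them higher. Atp6v1c1 was 0.35 lower (adjusted p = 0.0116) and Atp6v1e1 0.26 lower (adjusted p = 0.0385). The pump also serves synaptic vesicles, and 5 of 14 neuron markers were called lower in the same comparison, where their part was not tested. The β-actin 3′/5′ ratio does not overlap between these groups. With it as a covariate 0 of 27022 probe sets were called between the mixture and old control. None of the calls named for the lists then holds, while Atp6v1c1 was 0.25 lower and Atp6v1e1 0.16 lower, and the acidification median was -0.11. Of the acidification genes and neuron markers, 0 were called with quantile normalization, where the medians were 0.03 and 0.02, and 0 with cyclic loess, and 2 of each without old control mouse 3.

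Of 6 tested transcription factors of lysosomal or macrophage genes, 0 were called higher with age and 1 lower. Over all probe sets 9.33% were called higher and 9.54% lower, so so short a list shows no excess. Zkscan3, a repressor of lysosomal genes, fell by 0.29 on the log2 scale (adjusted p = 0.0211), a call lost with equal array medians (0.286) and with the β-actin covariate (0.148). Tfeb differed by 0.60 (adjusted p = 0.06), Irf8 by 0.17 (adjusted p = 0.326) and Spi1, which encodes PU.1, by 0.16 (adjusted p = 0.44). Tfeb passed the threshold as higher with quantile normalization (0.715, adjusted p = 0.0278), cyclic loess (0.71, 0.0321) and equal array medians (0.728, 0.0228). Tfeb missed it once the β-actin ratio entered the fit (0.743, adjusted p = 0.0952) and when old control mouse 3 was left out (0.605, 0.0839).

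**Figure D4:**
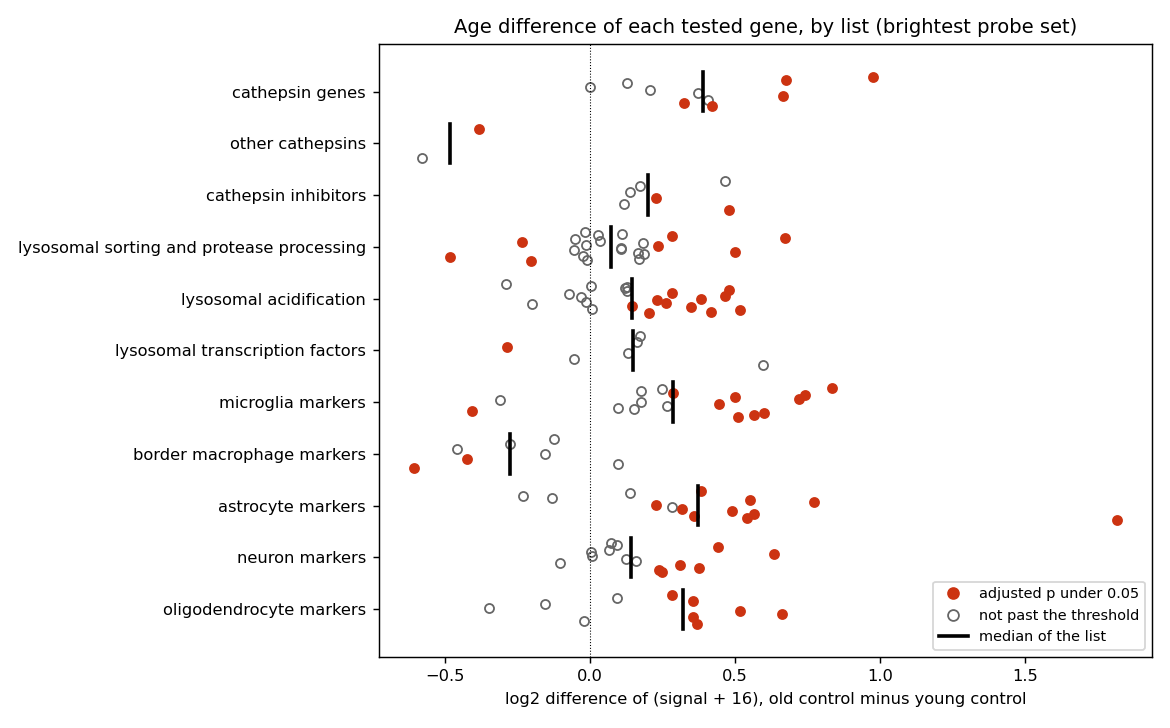
Log2 difference of (signal + 16), old control minus young control, for each tested gene of the cathepsin members and of the pathway and cell marker lists (1 point per gene, brightest probe set; n = 5 mice per group), with the median of each list. Acidification genes have a median of 0.14 with 11 of 21 called higher, and border macrophage markers a median of -0.28 with 2 of 7 called lower.

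Markers of several cell types differed with age in the same samples, against 9.33% of all probe sets called higher and 9.54% lower. Of 17 tested microglia markers, 9 were called higher and 1 lower with a median of 0.28, and their summed signal was 19294 to 20901 in young control and 25578 to 27937 in old control mice. Such a sum follows its brightest probe sets and is given as a description only. Here Csf1r, named as the brightest, had a mean of 5877 in young control and 8706 in old control mice. Tyrobp rose by 0.83, Ly86 by 0.74 and Sall1 by 0.72, while P2ry12, named as the only one called lower, fell by 0.41 on the log2 scale, a call lost with equal array medians (adjusted p = 0.152), with the β-actin covariate (0.664) and without old control mouse 3 (0.0743). The summed microglia signal was 24911 to 28645 with α-tocopherol and 22414 to 32315 with the mixture. Of 14 astrocyte markers 10 were called higher and 0 lower, with Gfap highest in difference at 1.82 and a summed signal of 98782 to 105261 in young control and 134403 to 153493 in old control mice. Oligodendrocyte markers were called higher for 6 of 10 and neuron markers for 6 of 14. The glial counts called higher are given for quantile normalization, cyclic loess, the β-actin covariate and equal array medians, in that order. They were 5, 3 (with 1 lower), 3 and 6 for oligodendrocyte markers. Astrocyte markers gave 7, 8, 6 and 12, and microglia markers 9, 9, 6 and 10. For neuron markers quantile normalization gave 3 higher and 2 lower with a median of -0.03, and the β-actin covariate 2 higher. The part of these cells in the cathepsin differences was not tested.

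Markers of macrophages at the borders of the brain and of blood cells were dim or had no rise called. Against 9.54% of all probe sets called lower, of 7 border macrophage markers 0 were called higher and 2 lower, Mrc1 by -0.61 (adjusted p = 0.00552) and Pf4 by -0.42 (adjusted p = 0.0493, lost under each scaling and without old control mouse 3). Cd163, Lyve1, Cbr2 and Clec10a were below the limit. Neutrophil and monocyte markers S100a8, S100a9 and Ccr2 and lymphocyte markers Cd3e, Cd3g and Cd3d were below it as well. The few of these lists that were tested, 2 and 3 genes, had 0 calls, and the summed signal of the myeloid pair ran from 350 to 3739 in old control mice, with Plac8 in old control mouse 3 at the top, against 522 to 640 in young control mice. Of 12 meningeal markers 0 were called with age and of 8 choroid plexus markers 1 was lower. In endothelial and mural markers 1 of 11 was higher and 2 were lower. The hemoglobin gene Hba-a1 and the other 4 blood markers on the array did not pass the filter, and no direction was read from them. Their median signals are given for young control, old control, α-tocopherol and mixture mice, in that order. They were 24.3, 33.1, 75.1 and 201.5 for Alas2, a heme synthesis gene of red cells. For Hba-a1 they were 151.9, 52.5, 110.1 and 63.9, and for Slc4a1 69.1, 63.8, 74.1 and 71.9. Ppbp gave 32.2, 67.1, 42.2 and 25.2, and Gp9 59.6, 42.5, 33.1 and 38.4.

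The 18S ribosomal control probe sets, which should be low in poly(A) RNA, averaged 259 to 488 in young control, 720 to 1078 in old control, 420 to 1272 with α-tocopherol and 393 to 612 with the mixture. Their ranges in young and old control mice did not overlap, and their part in the age differences was not tested. With the β-actin 3′/5′ ratio as a covariate, 7 of 18 cathepsin probe sets were called with age in either direction instead of 9. Ctsd, Ctss and the 3 Ctsz probe sets were among the 7, and the dim Ctso one was not. Over all 27022 probe sets, 2028 were called with age under this covariate instead of 5097. Setting array medians equal moved the median of all probe sets from -0.05 to 0.09 and raised the cathepsin count to 13. The count of all called probe sets went from 5097 to 5573, and the share of them that were higher from 49.4% to 84.6%.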

How the data were processed

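Neocortex RNA of 20 mice was measured on 20 Affymetrix arrays. The deposited values are linear signal intensity per probe set, made with GCOS per the submitters' processing notes. Each deposited column had the same trimmed mean (2% at each end), so intensity had been scaled by the authors. The sources used here do not give the background and probe summary steps. A shift of all messenger RNA cannot be seen after such scaling. Of 45101 probe sets, 64 controls were left out, and symbols came from the platform annotation, updated to RefSeq (GRCm38.p6) for 34741 of the 34945 with 1 symbol.

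The brightest 60% of probe sets over all arrays, on the log2(signal + 16) scale, were tested (27022, signal limit 184), with limma 3.58.1 in R 4.3.3: lmFit over the 4 groups, contrasts, eBayes with an intensity trend, two-sided, Benjamini-Hochberg over all probe sets tested, threshold 0.05. Correlations and motif searches used Python 3.11.15. Both procedures were tested on simulated data. Arrays of a group correlated at 0.9634 to 0.9808, so no library counted double. The number of arrays limits the precision.

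Named genes are all 10 members, and of each list the up to 4 (pathway) or 3 (cell markers) tested genes with the smallest p for age, plus defining markers below the limit. The members and lists were chosen with earlier results of these data known. Promoter sequences are RefSeq's, and no protein sequence was used. Alternatives covered pseudocount, filter, normalization, 1 probe set per gene, replicate block, leaving out each mouse, variance model, β-actin covariate and the samples fitted. Same-numbered mice correlated at -0.11 to 0.203 (over 0.1 in 5 of 20 pairs), so the numbers were not taken as pairs. The lists were also counted under other scalings, the β-actin covariate and without old control mouse 3, chosen after seeing the data.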

Additional observations from a re-analysis of the deposited data

Results flagged for a closer look

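In 4 of 72 groups of 5 mice examined over the 18 probe sets, the highest mouse stood apart from the others by more than Dixon's limit, where chance gives about 1 in 20. For Ctsc, old control mouse 3 gave a signal of 2789.7 and the next mouse 1011. For Ctsz on 1417870_x_at, mixture mouse 3 gave 2588.2 and the next 1881.6. For Ctsh on 1443814_x_at, mixture mouse 3 gave 909.4 and the next 690.5. For Ctsb on 1417490_at, young control mouse 1 gave 17675.5 and the next 16283.4.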

How the results depend on the processing

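All 34 alternatives run for the age difference kept Ctsd, Ctss and Ctsz 1417868_a_at called higher. With the replicate block the counts of cathepsin probe sets called in either direction, the dim Ctso one included, were 9 for age, 12 for α-tocopherol against young, 13 for the mixture against young and 12 for the F test, as without it. With 1 probe set per gene, which leaves 10 features, they were 5, 7, 8 and 7. Small differences changed sign with the scaling. Quantile normalization gave, for the mixture against old control, 0.14 for Ctsb 1417490_at, -0.027 for Ctsc, 0.085 for Ctsd and 0.027 for Ctsl, and 0.09 for Ctsb against α-tocopherol. Cyclic loess gave 0.069 for Ctsb, -0.029 for Ctsc, 0.093 for Ctsd and 0.06 for Ctsl against old control, 0.026 for Ctsb against α-tocopherol, and -0.018 for Ctsl with α-tocopherol against young. Equal array medians gave 0.137 for Ctsl with age, -0.021 for Ctsb and -0.001 for Ctsh with α-tocopherol, -0.05 for Ctsc with the mixture, 0.042 for Ctsl with the mixture against young, and 2 correlated pairs in place of 0; for the mixture against old control the share of all calls that were higher went from 36.1% to 9.83%. Array weights gave 0.009 for Ctsl with age and 0.006 for Ctsd with the mixture. The β-actin covariate gave 0.038 for Ctsl with age, -0.136 and -0.085 for Ctsz 1417868_a_at with α-tocopherol and the mixture against old control, and 0.008 for Ctsa with the mixture. Leaving out old control mouse 3 and mixture mouse 3 together, chosen after seeing the data, gave 0.032 for Ctsc with α-tocopherol and 9 calls for the mixture against young. The cause of these changes was not tested.

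Leaving out each mouse in turn gave, with age, -0.014 to 0.062 for Ctsb 1417492_at and -0.032 to 0.042 for Ctsl. With α-tocopherol against old control it gave -0.031 to 0.031 for Ctsb 1417490_at, -0.41 to 0.032 for Ctsc, -0.014 to 0.058 for Ctsh 1418365_at and -0.002 to 0.177 for Ctsz 1417868_a_at. With the mixture against old control it gave 0 to 1 calls (1 without mixture mouse 4), -0.087 to 0.355 for Ctsc, -0.109 to 0.072 for Ctsd and -0.055 to 0.008 for Ctsl. With the mixture against young it gave 8 (without mixture mouse 3) to 14 calls and -0.052 to 0.023 for Ctsl, and correlated pairs numbered 0 to 1 (1 without mixture mouse 4). Over all probe sets, the calls for the mixture against young were 3380 without mixture mouse 3 and 4611 with every mouse.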
